A study of Mus musculus with 8 samples.

Results

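The heat shock chaperones are proteins that bind unfolded or damaged proteins and help them fold, and their transcripts were followed in ventral midbrain tissue from Ercc1 delta/+ mice and wild type controls. The members were 10 genes taken by name, of 15285 genes in the deposited table, and each is represented by its RefSeq row of highest total count. All 10 passed the filter on low counts, which kept 15000 genes. They fall into 6 stress-inducible genes (Hspa1a, Hspa1b, Hspb1, Hsph1, Dnajb1 and Hsp90aa1), 2 constitutive genes (Hspa8 and Hspa4l) and 2 mitochondrial genes (Hspd1 and Hspe1). Messenger RNA was sequenced in 4 samples of Ercc1 delta/+ mice, which carry 1 mutant and 1 normal allele of the DNA repair gene Ercc1, and in 4 samples of wild type mice. Both groups share the mixed FVB:C57BL/6J strain background and the dissected region, and the labels name no treatment and give no age. Whether the samples came from different animals is not stated, and the p-values therefore describe sample-to-sample spread, which may be technical in part.

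In unstressed cells the heat shock factor HSF1 is held inactive by chaperones. Unfolded protein draws those chaperones away, and HSF1 then binds heat shock elements, inverted repeats of the letters GAA, near the start of its target genes. HSP70 proteins (Hspa1a, Hspa1b, Hspa8) work with J-domain partners such as Dnajb1, which load the client, and HSP110 proteins such as Hsph1 and Hspa4l, which release it. HSP90 finishes the folding of kinases and steroid receptors, small heat shock proteins such as Hspb1 hold unfolded clients, and Hspd1 and Hspe1 form the folding chamber of mitochondria and its lid. In brain, neurons make large amounts of the constitutive forms, whereas the inducible HSP70 is low at rest.

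Start-site windows of 300 bases (250 before and 50 after the start) from RefSeq, build GRCm38.p6, were at hand for 8 members. Hspa1a is shown with a pair of facing heat shock units (GAANNTTC or TTCNNGAA, which read the same on both strands) in capitals, because it had the largest fold change with its copy Hspa1b. Hspb1, Hsph1 and Hspe1 are shown in the same way, to compare inducible genes with a mitochondrial one.
Hspa1a (chr17:34972107-34972406, minus strand): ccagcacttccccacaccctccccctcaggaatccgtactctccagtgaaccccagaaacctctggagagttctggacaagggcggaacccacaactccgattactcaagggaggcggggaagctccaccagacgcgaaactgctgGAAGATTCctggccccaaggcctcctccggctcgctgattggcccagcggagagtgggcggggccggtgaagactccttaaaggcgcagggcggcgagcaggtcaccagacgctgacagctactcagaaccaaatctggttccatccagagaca
Hspb1 (chr5:135887669-135887968, plus strand): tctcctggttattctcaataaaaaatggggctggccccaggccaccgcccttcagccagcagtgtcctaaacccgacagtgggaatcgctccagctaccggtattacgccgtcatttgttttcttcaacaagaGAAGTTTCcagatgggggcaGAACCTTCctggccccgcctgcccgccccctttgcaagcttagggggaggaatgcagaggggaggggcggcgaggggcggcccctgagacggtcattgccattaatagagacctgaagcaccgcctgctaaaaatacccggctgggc
Hsph1 (chr5:149636287-149636586, minus strand): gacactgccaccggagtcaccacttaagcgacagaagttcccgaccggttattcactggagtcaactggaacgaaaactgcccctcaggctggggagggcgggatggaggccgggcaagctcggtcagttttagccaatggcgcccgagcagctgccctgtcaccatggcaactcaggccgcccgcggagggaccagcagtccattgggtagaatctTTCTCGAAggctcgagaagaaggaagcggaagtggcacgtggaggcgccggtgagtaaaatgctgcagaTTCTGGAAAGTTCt
Hspe1 (chr1:55087898-55088197, plus strand): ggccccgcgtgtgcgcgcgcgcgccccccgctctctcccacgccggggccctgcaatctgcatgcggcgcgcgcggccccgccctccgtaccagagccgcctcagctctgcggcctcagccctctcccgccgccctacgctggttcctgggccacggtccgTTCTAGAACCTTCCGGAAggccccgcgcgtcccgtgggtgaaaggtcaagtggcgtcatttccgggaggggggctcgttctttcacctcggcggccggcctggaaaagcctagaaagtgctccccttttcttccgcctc
The window of Hspa1b, printed next, has capitals only where its base differs from that of Hspa1a, because the likeness of the pair bears on how their reads can be assigned.
Hspa1b (chr17:34959189-34959488, minus strand): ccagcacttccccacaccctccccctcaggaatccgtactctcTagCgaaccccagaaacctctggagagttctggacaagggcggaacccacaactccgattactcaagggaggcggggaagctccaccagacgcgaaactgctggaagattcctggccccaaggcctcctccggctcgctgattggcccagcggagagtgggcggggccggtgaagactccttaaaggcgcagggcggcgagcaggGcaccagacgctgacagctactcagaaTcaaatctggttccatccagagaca
The Hspa1a and Hspa1b windows were the same at 296 of 300 bases.

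The facing pair of units was found in 6 of these 8 members, against 17.0% of 27025 genes with a window (15.1% of 32851 windows). These 6 are not separate sequences, because Hspa1a and Hspa1b share most of their window and Hspd1 and Hspe1 share the matched letters. The facing pair began 104 bases before the start in Hspa1a and in Hspa1b, and Hspb1 held it at 117 and at 97 bases before the start. A run of 3 units (GAANNTTCNNGAA or TTCNNGAANNTTC, each the other's opposite strand and each holding overlapping facing pairs) was found in Hsph1, Hspd1 and Hspe1, and in 0.603% of all windows. In Hsph1 that run lay after the start, while a separate facing pair began 33 bases before it. In Hspe1 the overlapping facing pairs began 89, 84 and 79 bases before the start, and the same letters, read from the other strand, made up the matches in 1 of the 2 windows of Hspd1, which is transcribed away from Hspe1. Neither motif was found in the windows of Dnajb1 or Hspa4l. A match describes letters in this window and is not evidence of binding.

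Totals after keeping 1 row per gene ran between 18271978 and 27152167 counts in Ercc1 delta/+ libraries and between 20522061 and 31204701 counts in wild type libraries, at which 3 counts correspond to at most 0.17 CPM, counts scaled to a fixed library size. Values below are CPM scaled by the TMM method, which corrects for differences in composition between libraries. Ercc1 itself stood at 10.2, 12.9, 11.1 and 11.9 CPM in Ercc1 delta/+ replicates 1 to 4, against 14.1, 15.4, 15.0 and 13.8 CPM in wild type replicates, so every library lay on the side of its label (log2 fold change -0.34, SE 0.10, edgeR adjusted p = 0.114). The dopaminergic markers of the region were present in both groups, with sums over 10 genes of 294 to 551 CPM in Ercc1 delta/+ and 392 to 598 CPM in wild type, and of these Pitx3 averaged below 1 CPM. In whole tissue, fewer cells of a type and less RNA per cell cannot be told apart.

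Hspa1a (NM_010479) and Hspa1b (NM_010478) encode the inducible HSP70. Both had a higher mean in Ercc1 delta/+, but neither passed the test, and the mutant libraries differed widely. Hspa1a stood at 186, 82.0, 49.6 and 419 CPM in Ercc1 delta/+ replicates 1 to 4, against 46.7, 47.4, 23.4 and 28.6 CPM in wild type replicates 1 to 4. Replicates 4 and 1 of the mutant stood far above the rest, and replicate 3 only just above the highest wild type library, so the groups did not overlap. Hspa1b stood at 198, 85.3, 52.0 and 438 CPM in the mutant libraries, against 49.2, 52.2, 23.2 and 27.8 CPM in wild type. Here mutant replicate 3 lay below wild type replicate 2, and the groups overlapped by that single pair.

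The mean of Hspa1a was 184 ± 167 CPM in Ercc1 delta/+ and 36.5 ± 12.3 CPM in wild type (± SD, 4 libraries a group). Its log2 fold change was 2.34 (SE 0.61, 5.06-fold), and it missed the threshold of 0.05: its adjusted p was 0.0987 in edgeR's quasi-likelihood test, Benjamini-Hochberg adjustment covering all genes tested. Hspa1b gave 2.35 (SE 0.62, adjusted p = 0.102). In the mutants the SD was 90.7% of the mean of Hspa1a, against 33.8% in wild type, and the highest mutant library held 8.45 times the lowest. Without mutant replicate 4 the log2 fold change of Hspa1a was 1.54 (adjusted p = 0.22), and with sequencing depth as a covariate (the 4 shallowest libraries against the rest) it was 1.43 (adjusted p = 0.338). Summed as a single feature, the pair gave 384, 167, 102 and 858 CPM in the mutants and 95.9, 99.6, 46.6 and 56.4 CPM in wild type, without overlap (log2 fold change 2.34, adjusted p = 0.0998).

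The pair cannot be read as independent genes. Of all 50-base windows of the Hspa1a transcript, 58.8% also occur in that of Hspa1b, and how reads with several possible origins were counted is not given in the sources used here. The count of Hspa1b was between 1.04 and 1.06 times that of Hspa1a in mutant libraries and between 0.972 and 1.10 times in wild type libraries. The exons of Hspa1a also overlap 564 bases of the opposite-strand gene Gm20481.

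Hspb1 (NM_013560), the small heat shock protein that holds clients without using ATP, followed the same libraries. It stood at 28.2, 19.0, 13.4 and 38.1 CPM in Ercc1 delta/+ replicates 1 to 4 and at 14.4, 12.9, 5.55 and 7.10 CPM in wild type. Mutant replicates 1, 2 and 4 lay above every wild type library, and replicate 3 lay below wild type replicate 1. Its log2 fold change was 1.31 (SE 0.38, 2.48-fold, adjusted p = 0.118), and it missed the threshold. Of its 50-base windows, 58.9% also occur in the pseudogene Hsp25-ps1, so part of its count may belong there.

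Dnajb1 (NM_018808), the J-domain partner of HSP70, shared the pattern at a smaller size. It stood at 128, 111, 80.5 and 190 CPM in Ercc1 delta/+ and at 93.1, 89.1, 70.5 and 77.4 CPM in wild type. Again mutant replicates 1, 2 and 4 were above all wild type libraries, while replicate 3 lay within the wild type range. The log2 fold change was 0.63 (SE 0.23, 1.54-fold, adjusted p = 0.191), and 0.37 (adjusted p = 0.362) without mutant replicate 4. Hsph1 (NM_013559), the HSP110 exchange factor, stood at 662, 486, 389 and 750 CPM in Ercc1 delta/+ and at 485, 459, 352 and 334 CPM in wild type. Mutant replicate 2 lay just above wild type replicate 1, and replicate 3 lay inside the wild type range. Its log2 fold change was 0.49 (SE 0.21, 1.4-fold, adjusted p = 0.253), and 0.33 without mutant replicate 4. These genes share little sequence with others: 0 of the 50-base windows of Hsph1, and 0.441% of those of Dnajb1, occur in another gene.

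Hsp90aa1 (NM_010480), the stress-inducible HSP90, differed little between the genotypes. It stood at 1573, 1450, 1185 and 1635 CPM in Ercc1 delta/+ and at 1527, 1469, 1298 and 1207 CPM in wild type. The highest and the lowest of the 8 libraries were both mutant, and the groups overlapped broadly. The log2 fold change was 0.09 (SE 0.12, adjusted p = 0.722). Among the 6 stress-inducible genes the log2 fold changes thus ran between 0.09 and 2.35, with a median of 0.97. That median counts Hspa1a and Hspa1b separately, although the pair cannot be read as independent genes. Of the transcript windows of Hsp90aa1, cut to the same length as for the genes above, 58.5% also occur in other genes. The pseudogene Gm12346 holds 51.5% of them all. How much of the Hsp90aa1 count belongs to such genes was not tested.

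**Figure D1:**
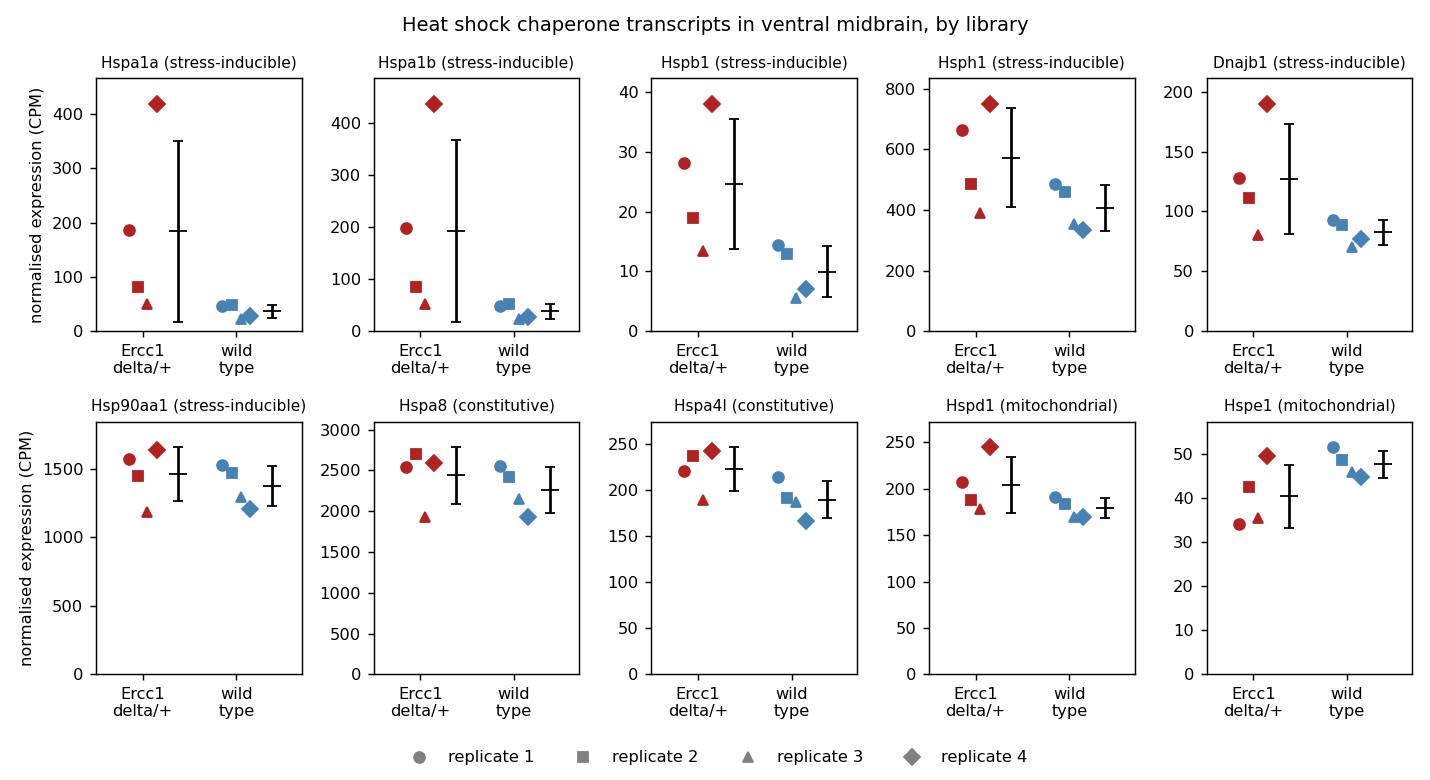
Normalised expression in CPM of each of the 10 members (linear axes from 0), with a symbol per replicate in red for Ercc1 delta/+ and blue for wild type (circle, square, triangle and diamond for replicates 1 to 4), and the mean with SD (n = 4) in black beside each group. Mutant replicate 4 reached 419 CPM for Hspa1a, and mutant replicate 3 (49.6 CPM) stood next to the wild type libraries.

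Hspa8 (NM_031165), the constitutive HSP70 that uncoats clathrin vesicles and guides proteins to lysosomes, was the most abundant member. It stood at 2547, 2695, 1924 and 2588 CPM in Ercc1 delta/+ and at 2553, 2423, 2146 and 1929 CPM in wild type. Mutant replicate 3 was the lowest library of all 8 and the groups overlapped. The log2 fold change was 0.11 (SE 0.12, adjusted p = 0.678). Hspa8 exceeded the summed Hspa1a and Hspa1b CPM 6.63, 16.1, 18.9 and 3.02 times in mutant replicates 1 to 4, against 26.6, 24.3, 46.0 and 34.2 times in wild type. Pseudogenes and other genes hold 74.8% of the 50-base windows of Hspa8, the largest share among the members.

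Hspa4l (NM_011020), an HSP110 protein like Hsph1, stood at 221, 237, 189 and 243 CPM in Ercc1 delta/+ and at 215, 192, 187 and 167 CPM in wild type. Mutant replicates 1, 2 and 4 lay above every wild type library and replicate 3 within their range, as for Hsph1. The log2 fold change was 0.23 (SE 0.10, 1.17-fold, adjusted p = 0.266).

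The mitochondrial partners differed in direction. Hspd1 (NM_010477), the chamber subunit HSP60, stood at 207, 188, 178 and 245 CPM in Ercc1 delta/+ and at 191, 183, 170.0 and 170.0 CPM in wild type. Mutant replicates 4 and 1 lay above every wild type library and the others among them. Hspe1 (NM_008303), the lid subunit HSP10, stood at 34.1, 42.5, 35.5 and 49.5 CPM in Ercc1 delta/+ and at 51.6, 48.6, 46.0 and 44.7 CPM in wild type. Mutant replicates 1, 2 and 3 lay below every wild type library and replicate 4 within their range.

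The log2 fold change was 0.19 for Hspd1 (SE 0.10, adjusted p = 0.343) and -0.24 for Hspe1 (SE 0.12, adjusted p = 0.307), and neither passed. The CPM of Hspd1 over that of Hspe1, a ratio chosen after the values were seen and therefore not tested, was 6.06, 4.42, 5.01 and 4.95 in Ercc1 delta/+ and 3.71, 3.77, 3.70 and 3.80 in wild type, without overlap. The wild type ratio varied little (3.75 ± 0.0519), and the mutant ratio more (5.11 ± 0.688; SD, n = 4 each). The transcript of Hspe1 is 774 bases long and that of Hspd1 2423 bases, and once length and GC content were offset the log2 fold change of Hspe1 was 0.00 (adjusted p = 0.998) and that of Hspd1 0.26 (adjusted p = 0.42). The start of Hspe1 and 1 of the 2 starts of Hspd1 lie within the window shown above. Their annotated exons overlap by 112 bases on opposite strands, and the treatment of strand in counting is not given in the sources used here. Other genes also hold 44.8% of the transcript windows of Hspd1, cut to the same length as above, and 44.8% of those of Hspe1. The pseudogene Hspd1-ps3 holds 42.8% of those of Hspd1, and the gene AC117239.2 holds 35.2% of those of Hspe1. The part of such shared reads in either count, and in the ratio, was not tested.

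**Figure D2:**
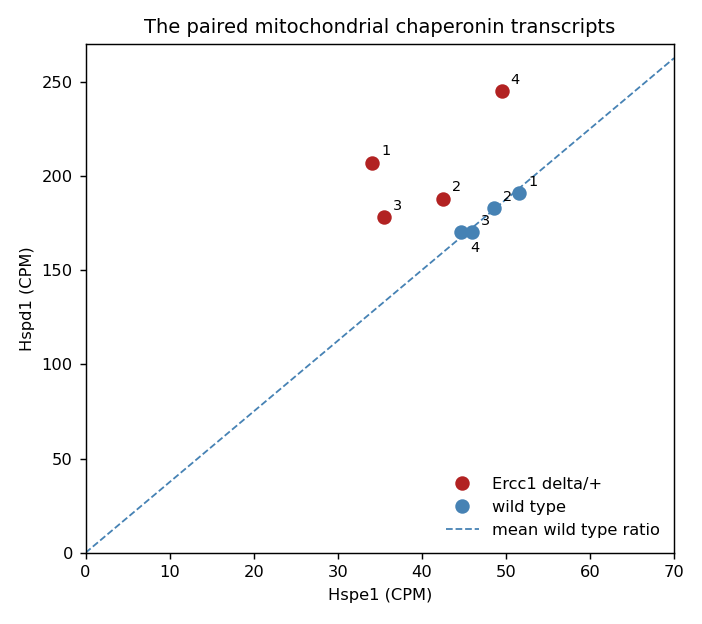
CPM of Hspd1 (vertical) against CPM of Hspe1 (horizontal) in each library, red for Ercc1 delta/+ and blue for wild type, with the replicate number beside each point and a dashed line at the mean wild type ratio of 3.75. The 4 wild type libraries lie along the line and the 4 mutant libraries lie above it.

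Across members the same libraries were high and low. Mutant replicate 4 was the highest mutant library for 9 of 10 members, all but Hspa8, and replicate 3 the lowest for 9 of 10, all but Hspe1. The order 4, 1, 2, 3 held for 7 members, among them the whole stress-inducible class and Hspd1. In wild type, replicates 1 and 2 stood above replicates 3 and 4 for all 10 members, constitutive and mitochondrial genes included. The mean log2 CPM of 11 ER chaperones, centred on the 8 libraries, split the same way (0.11, 0.16, -0.60 and -0.41 in wild type replicates 1 to 4). With smaller gaps, so did those of other cytosolic HSP70, HSP90 and HSP110 genes (-0.03, -0.05, -0.24 and -0.23) and of J-domain co-chaperones other than Dnajb1. The means of HSP70 and HSP90 cofactors and of the cytosolic chaperonin TRiC also split this way. That of 11 other mitochondrial chaperones and proteases did not (0.00, 0.01, 0.05 and -0.02). Nor did those of heat shock factors with their regulators and of small heat shock proteins other than Hspb1. How many of all genes show these orders was not counted. Within wild type the highest library held 2.59 times the lowest for Hspb1, 2.03 times for Hspa1a and 1.13 times for Hspd1. The summed CPM of the 10 members was 5784, 5395, 4096 and 6597 in the mutants and 5225, 4977, 4322 and 3993 in wild type, and Hspa1a with Hspa1b made up between 2.48% and 13.0% of it in the mutants and between 1.08% and 2.00% in wild type.

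**Figure D3:**
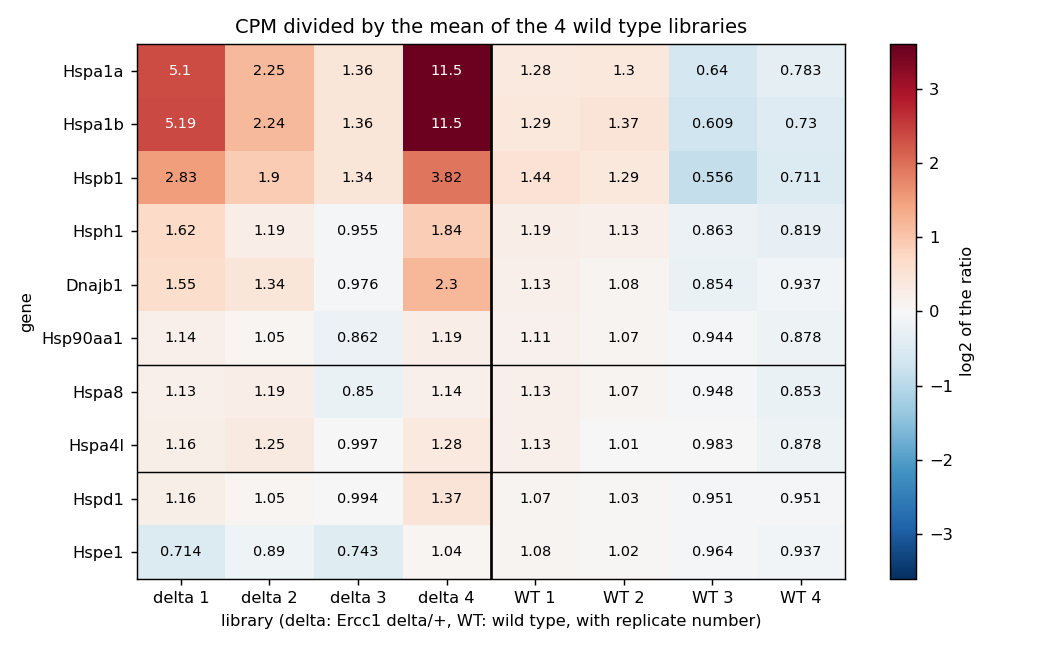
CPM of each member in each library divided by the mean of the 4 wild type libraries, printed in the cells and coloured on a log2 scale, with the 4 Ercc1 delta/+ libraries at the left and stress-inducible, constitutive and mitochondrial genes from top to bottom. Hspa1a reached 11.5 times the wild type mean in mutant replicate 4 and 1.36 times in replicate 3, whereas Hsp90aa1 stayed between 0.862 and 1.19 in the mutants.

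Sequencing depth overlapped with genotype. Mutant replicates 1, 2 and 4 and wild type replicate 2 had the 4 lowest totals, and of these the mutants had 186, 82.0 and 419 CPM of Hspa1a against 47.4 CPM in wild type. Among the 4 libraries of higher total, mutant replicate 3 had 49.6 CPM against 46.7, 23.4 and 28.6 CPM in wild type replicates 1, 3 and 4. Each depth group holds only 1 library of one of the genotypes, and no test was run within it. With depth group and genotype in the same edgeR fit, the log2 fold change of Hspa1a was 1.43 (SE 0.66, adjusted p = 0.338), that of Hspb1 0.86, that of Dnajb1 0.34 and that of Hsph1 0.23.

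Levels of genes are compared here after division by transcript length. The ratios and shares of CPM given above, among them Hspd1 over Hspe1, were not divided by length. In CPM per kilobase the order was Hspa8 (1019 in Ercc1 delta/+, 945 in wild type), Hsp90aa1 (445 and 419), Hsph1 (150.0 and 107), Hspd1 (84.3 and 73.8) and then Hspa1b and Hspa1a in the mutants (69.0 and 62.1), which stood at 13.6 and 12.3 in wild type. Hspe1, with 52.2 in the mutants and 61.7 in wild type, stood below Hspd1, its partner in the chamber. In wild type the ranges of mean ± SD overlapped for Hspb1 (11.1 ± 4.78), Hspa1a (12.3 ± 4.16) and Hspa1b (13.6 ± 5.25). Those of Hspa1b and Hspa4l (20.1 ± 2.09) also overlapped, while Dnajb1 (27.5 ± 3.49) stood above all of these (SD, n = 4). These SDs ignore that the genes were measured in the same 4 libraries, and a difference within libraries was not tested.

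By the quasi-likelihood test 0 of the 10 members passed an adjusted p of 0.05, where 0.0467% of all 15000 genes tested did (0.0133% higher and 0.0333% lower). At an unadjusted p of 0.05, 6 members were higher (Hspa1a, Hspa1b, Hspb1, Dnajb1, Hsph1 and Hspa4l) and 0 lower, beside 9.03% of all genes higher, 9.57% lower and 18.6% in either direction. Of the members, 9 had a positive log2 fold change, where 49.5% of all genes did, and their median was 0.36 against 0.00 over all genes tested. Groups did not overlap for 1 member, Hspa1a, which was higher, as were 5.18% of all genes (777), while 6.86% (1029) were lower without overlap; 1 of 10 is too few to set apart from that background. Without mutant replicate 3 they did not overlap for 6 members, the same 6 that had an unadjusted p under 0.05, where 18.0% of all genes did not overlap (8.65% higher). That library was the lowest mutant for 9 of 10 members, so leaving it out favours this outcome, and both counts rest on the same values. Leaving out any other single library gave 1 or 2 members.

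The call depended on the tool. DESeq2 gave adjusted p-values of 0.0183 for Hspa1a, 0.0201 for Hspa1b and 0.00912 for Hspb1, and called 7.42% of the genes it adjusted (3.59% higher and 3.83% lower). The edgeR exact test called the same 3 members and 3.59% of all genes (1.59% higher and 2.01% lower). Of the members, 4 had an adjusted p under 0.05 in the authors' deposited table, where 1.86% of all rows did (1.02% higher): Hspa1a (2.55e-06), Hspa1b (2.86e-06), Hspb1 (0.00062) and Dnajb1 (0.0349). The members were chosen with earlier results of these data known, so these counts are descriptions.

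Other genes of the chaperone network were taken from lists by function, and 0 genes of any of them passed the adjusted threshold in either direction. The transcription factor gene Hsf1 stood at 52.6 ± 3.26 CPM in Ercc1 delta/+ and 47.7 ± 5.33 CPM in wild type (SD over 4; log2 fold change 0.14, edgeR adjusted p = 0.411). Hsbp1, whose product binds and restrains HSF1, stood at 137 ± 6.04 CPM in Ercc1 delta/+ and 164 ± 8.09 CPM in wild type (SD over 4), and its groups did not overlap (log2 fold change -0.26, adjusted p = 0.0885 by edgeR). Of the 6 factor genes and regulators 5 had a negative log2 fold change, and the median of the 6 was -0.10. Over all 15000 genes tested, 7579 were negative. Of the 5, Hsf5 and Hsf2bp averaged below 1 CPM, and Hsf2 gave -0.02 (SE 0.09).

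Among 22 cofactors of HSP70 and HSP90, 15 had a positive log2 fold change and the median was 0.05. Bag3, the HSP70 cofactor that sends clients to autophagy, stood at 28.0, 33.3, 19.3 and 41.2 CPM in Ercc1 delta/+ and at 21.4, 19.5, 19.7 and 15.8 CPM in wild type. Mutant replicate 3 was again the mutant library within the wild type range (log2 fold change 0.67, SE 0.21, adjusted p = 0.138). Fkbp5, an HSP90 cofactor induced by glucocorticoids, had groups that did not overlap, replicate 3 included (0.86, SE 0.17, adjusted p = 0.062). Sugt1, another HSP90 cofactor, gave -0.13 and was lower, also without overlap, though by a narrow margin. Of the 22 cofactors, 2 were higher and 1 lower without overlap.

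Of 16 J-domain genes other than Dnajb1, 10 were positive, with a median of 0.04. Dnajb5 had a log2 fold change of 0.42 (adjusted p = 0.186), Dnaja4 0.35 and Dnajc8 -0.24 (adjusted p = 0.0985), the last without overlap. Hsp90ab1, the constitutive HSP90, gave 0.20 (SE 0.10, adjusted p = 0.312), and Hspa2 gave 0.35. The 4 tested small heat shock proteins other than Hspb1 had a median of 0.08, with Hspb8 at 0.33 (adjusted p = 0.21), Cryab at 0.24 and Hspb2, under 1 CPM, at -0.55.

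The chaperonin TRiC folds actin and tubulin in the cytosol, and 7 of its 8 subunit genes were negative, beside 7579 of all 15000 genes. The median was -0.08, with values between -0.12 and 0.02, and 0 of the 8 had an unadjusted edgeR p under 0.05. Tcp1 stood at 189 ± 9.78 CPM in Ercc1 delta/+ and 206 ± 3.59 CPM in wild type (SD over 4), without overlap. Cct3 gave -0.11 and Cct4 -0.12. Of 11 other mitochondrial chaperones and proteases 6 were positive and 5 negative, with a median of 0.00. Grpel1, the exchange factor of mitochondrial HSP70, gave -0.23 (edgeR adjusted p = 0.225). The protease subunit gene Clpp gave -0.15, without overlap, and the protease gene Lonp1 0.10.

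Of 11 ER chaperone genes, 10 were positive and the median was 0.30. Serpinh1, the collagen chaperone, stood at 52.2, 37.3, 29.3 and 59.6 CPM in Ercc1 delta/+ and at 26.0, 29.9, 16.7 and 21.2 CPM in wild type. Its libraries took the order of Hspa1a in the mutants, and only mutant replicate 3 lay within the wild type range (log2 fold change 0.93, SE 0.24, adjusted p = 0.0994). Pdia4 gave 0.50 and Hyou1 0.25, both folding factors of the ER.

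**Figure D4:**
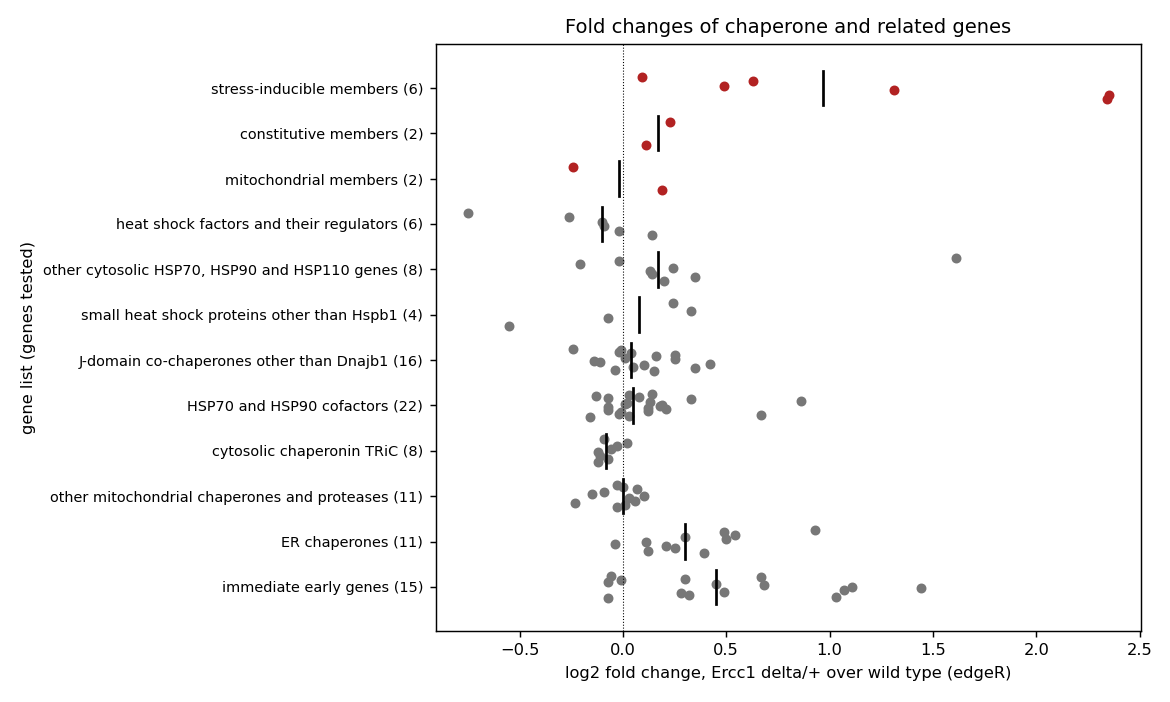
Log2 fold change, Ercc1 delta/+ over wild type, of each tested gene (points; members red, other genes grey) by list, with the number of genes tested beside the list name and a black line at each list's median. Stress-inducible members, with Hspa1a and Hspa1b counted separately, had a median of 0.97, ER chaperones 0.30 and TRiC subunits -0.08.

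The genes most like the mean log2 CPM of Hspa1a and Hspa1b over the 8 libraries were, among 14182 others averaging at least 1 CPM, Hspa1l (Pearson r = 0.984), Alkbh5 (0.979), Mxd1 (0.976), Zfp12 (0.975) and Serpinh1 (0.971). They were picked as the highest of many, so no p is given. Leaving out the libraries farthest from the median, mutant replicates 4 and 1, gave 0.915, 0.96, 0.89, 0.918 and 0.979 in the same order. Hspa1l, the HSP70 gene beside Hspa1a, stood at 28.6, 19.7, 11.3 and 60.8 CPM in Ercc1 delta/+ and at 11.4, 11.1, 9.05 and 7.96 CPM in wild type (log2 fold change 1.61, adjusted p = 0.108), and 71.4% of its 50-base windows also occur in the antisense gene Gm10501 and 9.57% in Hspa1a. Alkbh5, an RNA demethylase gene, and Mxd1, a transcriptional repressor gene, gave 0.23 and 0.33. Among members r was 0.981 for Dnajb1, 0.961 for Hspb1 and Hspd1, 0.958 for Hsph1, 0.813 for Hspa4l, 0.751 for Hsp90aa1, 0.624 for Hspa8 and -0.131 for Hspe1. Without mutant replicates 4 and 1 the members' r was 0.924 for Dnajb1, 0.979 for Hspb1, 0.817 for Hspd1, 0.835 for Hsph1, 0.80 for Hspa4l, 0.494 for Hsp90aa1, 0.639 for Hspa8 and -0.208 for Hspe1.

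Of 15 immediate early genes, which answer neuronal activity and handling within minutes, 11 had positive and 4 negative log2 fold changes (median 0.45). At an unadjusted edgeR p of 0.05, 4 were higher and 0 lower, beside 9.03% of all genes higher and 9.57% lower. Their mean log2 CPM, centred on the 8 libraries, was 0.60, 0.57, -0.51 and 0.34 in mutant replicates 1 to 4 and -0.68, 0.09, -0.06 and -0.36 in wild type, where the 6 stress-inducible chaperones had 0.81, 0.19, -0.31 and 1.41 in the mutants and -0.17, -0.21, -0.93 and -0.79 in wild type. Mutant replicate 3 was lowest of the mutants in both, whereas the chaperones peaked in replicate 4 and the immediate early genes did not. Klf4 (log2 fold change 0.67, adjusted p = 0.0863), Fosb (1.03) and Npas4 (0.68) had the smallest p-values of that list.

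Marker genes of other cells also differed between libraries. The summed CPM of 8 choroid plexus markers was 75.2 to 1143 in Ercc1 delta/+ and 61.7 to 155 in wild type, highest in mutant replicate 3, the library lowest in Hspa1a among the mutants, and 75.2 in replicate 4, the highest. Ttr, the thyroxine carrier, made up 993 CPM of the sum in replicate 3. The log2 fold changes of all 8 markers were positive. Their median was 1.80, against 0.97 for the stress-inducible chaperones, where Hspa1a and Hspa1b count separately. At an unadjusted edgeR p of 0.05, 6 of the markers were higher, beside 9.03% of all genes, but 0 passed the adjusted threshold. Kl stood at 29.1, 30.4, 56.4 and 11.7 CPM in Ercc1 delta/+ and at 9.57, 11.4, 10.5 and 9.60 CPM in wild type, and Kcnj13 at 5.76, 5.55, 10.4 and 2.79 CPM in Ercc1 delta/+ and at 1.35, 2.08, 1.54 and 2.29 CPM in wild type. For these 2 of the 8 markers, named after their values were seen, the groups did not overlap, replicate 4 included. Of all genes, 5.18% were higher without overlap. In replicate 4 Folr1 (0.778 CPM), Slc4a5 (0.64 CPM) and Otx2 (4.39 CPM) lay below every wild type library. Ttr, Clic6 and Aqp1 lay within the wild type range there. Of 8 endothelial and pericyte markers the sum was 229 to 315 CPM in Ercc1 delta/+ and 211 to 250 CPM in wild type, with 229 CPM in replicate 4. The 6 cortical and hippocampal neuron markers summed to 803, 779, 249 and 371 CPM in mutant replicates 1 to 4 and to 235, 505, 248 and 102 CPM in wild type, high in mutant replicates 1 and 2. Of the 3 blood markers measured, the sum was 151 to 235 CPM in Ercc1 delta/+ and 237 to 320 CPM in wild type, without overlap. Sums in CPM overlapped between Ercc1 delta/+ and wild type for astrocyte (2427 to 4178 against 2263 to 3818), microglial (284 to 341 against 237 to 344) and oligodendrocyte (6235 to 9547 against 5644 to 10298), ependymal (31.7 to 49.7 against 26.8 to 57.1) and general neuronal markers (5052 to 6028 against 4398 to 5699). The 4 oligodendrocyte precursor markers summed to 216 to 271 CPM in Ercc1 delta/+ and 187 to 215 CPM in wild type, without overlap. The part of these cell markers and of the immediate early genes in the chaperone values was not tested.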

How the data were processed

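Per the labels' protocols, poly(A) RNA of good quality was copied with poly-dT and random primers, barcoded and sequenced in a shared lane. Per the submitters' processing notes, TopHat 1.3.1 and edgeR were used on mm9. The authors deposited raw counts for 19931 coding RefSeq rows, with their own log2 fold change, p-value and adjusted p-value per row; no row has a total under 31. Which tool counted reads, and how strand and shared reads were handled, is not given in the sources used here.

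RefSeq tables (GRCm38.p6) and GENCODE M21 named 19600 rows; as mm9 differs, they served only for names, transcript sequence and the windows printed. For 2892 genes with several rows the row of highest total was kept, and 87 genes with identical counts were merged, which left 15285. Depth limits precision, and the limit of 3 counts covers counting error only. Genotypes were compared by quasi-likelihood in edgeR 4.0.16 (R 4.3.3; TMM, filterByExpr, robust=FALSE, genotype only, two-sided) with Benjamini-Hochberg adjustment over all genes. SE is the log2 fold change over the root of F, log2 CPM uses a prior count of 2, and tests were tried on simulated data. Alternatives used DESeq2 1.42.0, limma 3.58.1, other scalings and filters, a replicate block, a length and GC offset (lowess span 0.3), a depth term, summed rows and leaving out each library. Genes named by rule are all members, Ercc1, Hsf1, Hsp90ab1, Bag3, up to 3 per related list by smallest p, and the 5 most like Hspa1a and Hspa1b. Not every gene the rule takes is described. Some genes are named outside the rule with their values seen, among them Pitx3, Ttr, Kl and Kcnj13 from the marker lists. Members and lists were chosen with earlier results of these data known.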

Additional observations from a re-analysis of the deposited data

How the results depend on the processing

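The count of members past the threshold was 0 under every alternative except DESeq2 and the edgeR exact test, each of which gave 3 (Hspa1a, Hspa1b and Hspb1). Leaving out each library kept it at 0, with adjusted p-values of Hspa1a between 0.0696 and 0.244. The median log2 fold change of the members was 0.36; it ran between 0.26 and 0.47 when each library was left out, and was 0.19 with the depth term and 0.23 with Hspa1a and Hspa1b summed. Members whose groups did not overlap numbered 2 with RLE scaling and with upper-quartile scaling, where Hspa1b joined Hspa1a, and between 1 and 6 when each library was left out. The count was 6 without Ercc1 delta/+ replicate 3 and 2 without Ercc1 delta/+ replicate 4 (Hspa1a and, lower, Hspe1), without wild type replicate 1 (with Hspb1) and without wild type replicate 2 (with Hspa1b). Hsp90aa1 and Hspa8 each had a log2 fold change of -0.05 with the depth term, against the direction reported; the cause was not tested. Hspe1 had 0.00 with the length and GC offset, no direction at this precision, and -0.01 with the offset and the replicate block. Ercc1 had an adjusted p of 0.0392 with DESeq2 (log2 fold change -0.33).

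Over all genes, 7 passed (2 higher, 5 lower). The count was 33 with RLE scaling, 86 with upper-quartile scaling, 65 with the stricter filter, 1024 with DESeq2, 52 with limma-voom, 539 with the exact test, 1 with the length and GC offset and 1 with the depth term, and between 0 (without Ercc1 delta/+ replicate 4) and 320 (without replicate 2) when each library was left out. Replicate numbers were not taken as pairs in the main fit. Deviations of same-numbered libraries from their group means had correlations of -0.275, 0.168, -0.122 and 0.262. Those of differently numbered libraries ran between -0.522 and 0.502. Such values cannot decide whether equal numbers mark samples handled together. With the replicate block 0 genes passed, 0 also with the block and the length and GC offset, and Hspa1a had a log2 fold change of 1.91 (adjusted p = 0.146) with the block. The limit of 3 counts, at most 0.17 CPM, lies below every member's value in every library.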
